A study of Mus musculus with 17 samples.

Results

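The genes described here are 9 that mark autonomic nerve cells and neuroendocrine cells: Prph, Stmn2, Th, Dbh, Phox2a, Htr3b, Syp, Scg2 and Chga. They were taken by symbol and gene identifier from RNA sequencing of mouse prostate and prostate tumours, in view of their levels in wild-type and tumour libraries, so those levels are given as a description and not as a test. The genotype libraries listed 8 of the 9 among 13905 genes kept, with Phox2a missing, and the libraries of an inducible model listed all 9 among 39179. All mice were C57BL/6. Tumours of the Ctnnb1 group (n = 3, about 12 months old) carried 1 Ctnnb1 allele without exon 3, which encodes the sites where beta-catenin is phosphorylated before it is degraded. Tumours of the combined group (n = 3, 6 to 8 months) carried that allele and a further engineered change. Wild-type prostate (n = 3, 12 months) carried neither. The labels mark the engineered alleles of both tumour groups with the letters pc, which they do not spell out. An inducible model of the combined genotype, in which the recombinase was Nkx3-1CreERT2, driven by a gene of luminal prostate cells, gave tumours under androgen deprivation (ADT, n = 3) and after mock treatment (n = 2), both about 15 months old. The labels do not say that each library came from a separate animal, so a p-value measures the spread between these libraries, and age and genotype differ together in the combined group.

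In rodents, autonomic nerves reach the prostate from the pelvic ganglia, clusters of nerve cell bodies that lie against the gland and hold both noradrenergic and cholinergic neurons. Noradrenergic neurons make noradrenaline from tyrosine in steps that include tyrosine hydroxylase (Th), the rate-limiting enzyme, and dopamine beta-hydroxylase (Dbh), which makes the final product inside vesicles. Peripherin (Prph) is the intermediate filament of peripheral neurons, and stathmin-2 (Stmn2) binds tubulin in growing axons. Phox2a is a homeodomain transcription factor that autonomic neurons need, and Htr3b is a subunit of the serotonin-gated channel. Synaptophysin (Syp) sits in the membrane of synaptic vesicles, while secretogranin II (Scg2) and chromogranin A (Chga) are packed into dense-core vesicles. Syp and Chga are also usual markers of neuroendocrine cells, which occur singly in prostate epithelium and make up neuroendocrine carcinoma. Most of a neuron's mRNA lies in its cell body, while nerve fibres are rich in the mRNA of the Schwann cells that wrap them. In GENCODE M21 on GRCm38 the members are protein-coding genes, with Prph at chr15:99055174-99058978 (plus strand), Stmn2 at chr3:8509360-8561606 (plus strand), Th at chr7:142892752-142931128 (minus strand), Dbh at chr2:27165233-27183200 (plus strand) and Phox2a at chr7:101818313-101822726 (plus strand). The others are Htr3b at chr9:48935008-48964990 (minus strand), Syp at chrX:7638471-7653256 (plus strand), Scg2 at chr1:79434669-79440120 (minus strand) and Chga at chr12:102554969-102565028 (plus strand).

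The promoters of 8 members were matched in RefSeq by Entrez number (GRCm38.p6), with no entry for Stmn2. The 250 bases before each RefSeq start were searched on both strands. The palindromic cAMP response element TGACGTCA lay in the promoters of Scg2, 68 to 61 bases upstream, and Th, 45 to 38 bases upstream, and in 1.55% of 32851 mouse promoters. Chga held the variant TGACGTAA (TTACGTCA on the other strand), 44 to 37 bases upstream, as did 0.447% of promoters. The shorter TGACG, which reads CGTCA on the other strand and lies inside both longer motifs, was found in Chga, Dbh, Scg2 and Th and in 17.8% of promoters. Prph held the TATA box TATAAA, which reads TTTATA on the other strand, 31 to 26 bases upstream, as did 12.4% of promoters. These are matches of letters, which the expression data do not test. The 4 sequences below show the 150 bases before the start, on the gene's own strand, for the members in which the longer motifs or the TATA box were found, with those motifs in capitals. Scg2 is at chr1:79440027-79440176 (minus strand), Th at chr7:142899996-142900145 (minus strand), Chga at chr12:102554791-102554940 (plus strand) and Prph at chr15:99055024-99055173 (plus strand).
Scg2: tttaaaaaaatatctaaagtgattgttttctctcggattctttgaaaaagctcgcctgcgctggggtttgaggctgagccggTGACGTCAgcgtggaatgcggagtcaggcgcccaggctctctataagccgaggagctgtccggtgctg
Th: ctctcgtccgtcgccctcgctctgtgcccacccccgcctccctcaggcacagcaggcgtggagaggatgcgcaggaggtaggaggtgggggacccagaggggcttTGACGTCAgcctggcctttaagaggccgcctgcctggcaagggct
Chga: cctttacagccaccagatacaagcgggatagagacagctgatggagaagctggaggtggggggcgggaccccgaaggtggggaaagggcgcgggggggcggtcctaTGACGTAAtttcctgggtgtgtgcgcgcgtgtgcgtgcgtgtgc
Prph: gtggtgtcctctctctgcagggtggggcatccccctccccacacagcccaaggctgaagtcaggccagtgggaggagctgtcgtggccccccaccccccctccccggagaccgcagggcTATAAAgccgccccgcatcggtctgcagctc

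Values are read counts per gene that were scaled per library and rounded, so they are whole numbers without a known depth, and levels are compared between libraries of 1 gene and not between genes. The totals of the values lay between 32455483 and 47248750 in the genotype libraries and between 30591734 and 32791101 in the inducible model. Ctnnb1 itself was at 25993 to 26930 in the Ctnnb1 group, at 27677 to 32871 in the combined group and at 18320 to 18850 in wild type, and at 64204 to 76649 under ADT against 30608 to 40205 with mock treatment. Reads from exons outside the deleted part make up this value, so it does not check the deletion. Epithelial keratin Krt8 was present at 11054 or more in every library, and the secretory gene Pbsn, at 383138 to 555331 in wild type, was at 0, 1 and 5 under ADT against 2533 and 2475 with mock treatment. The libraries of the inducible model form a set of files of their own and were compared only among themselves.

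Across the 3 wild-type libraries the members varied together. Prph was at 484, 654 and 894 in wild-type replicates 1, 2 and 3, and Stmn2 at 410, 606 and 688. Htr3b was at 48, 96 and 128, and Dbh at 174, 312 and 321. Replicate 1 was the lowest library for each of these 4 genes, and replicate 3 the highest. Syp was at 158, 197 and 267, Scg2 at 138, 171 and 201, and Chga at 48, 87 and 98. Th was at 128, 229 and 174, and thus had its highest value in replicate 2. Replicate 1 was the lowest library for 8 of 8 members, and replicate 3 the highest for 7 of 8. Among the 4942 genes with a wild-type mean in the members' range (77.7 to 677), 31.9% were lowest in replicate 1, 39.2% highest in replicate 3 and 19.6% both. The ratio of the highest to the lowest library was 2.63 for Htr3b, 2.02 for Chga, 1.85 for Prph, 1.84 for Dbh, 1.78 for Th, 1.69 for Syp, 1.68 for Stmn2 and 1.45 for Scg2. The median ratio was 1.81, against 1.24 for the genes of like level. The order (lowest in replicate 1, highest in replicate 3) together with a ratio of at least 1.5 was found for 6 of 8 members and for 4.96% of genes of like level. With 3 libraries this is a description without a test. It rests on replicate 1, since the median ratio between the other two libraries was 1.24.

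**Figure D1:**
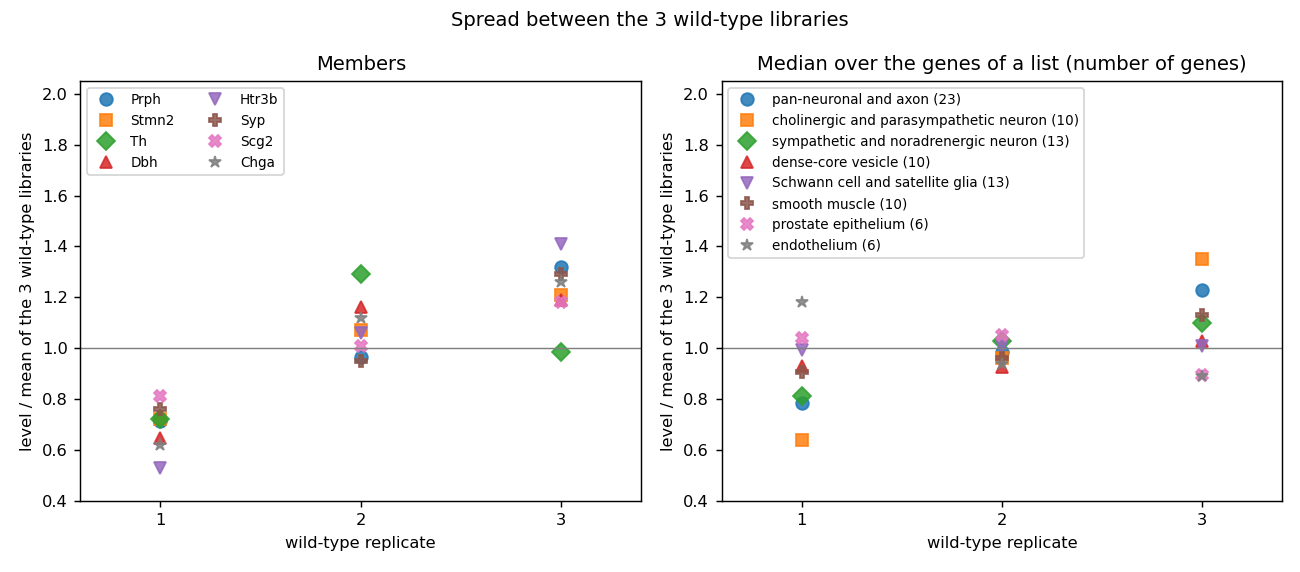
Level of each member (left) and median over the genes of each list (right) in wild-type replicates 1, 2 and 3, on the horizontal axis, divided by the mean of the 3 libraries, on the vertical axis (no unit). All 8 members lie below 1 in replicate 1, as do the medians of the cholinergic (0.638) and pan-neuronal (0.784) lists, while the Schwann cell median stays between 0.991 and 1.01.

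Genes of other lists were set beside this order in wild type. Of 10 cholinergic and parasympathetic genes, 8 were lowest in replicate 1 and highest in replicate 3, with a median ratio of 2.16. They include Chrna3 and Chrnb4, subunits of the nicotinic receptor of ganglion cells, at 132, 214 and 285 and at 46, 93 and 104. Of 23 pan-neuronal and axon genes, 18 had the order, with a median ratio of 1.67, for example Nefl, the light neurofilament chain, at 183, 272 and 382. The sympathetic list had the order in 6 of 13 genes (median ratio 1.44), among them Npy, a transmitter of sympathetic nerves, at 241, 340 and 398. The dense-core vesicle list had it in 5 of 10 genes (1.76), and the neuroendocrine carcinoma list in 1 of 5 (1.57). Of 13 Schwann cell and satellite glia genes 3 had it, and their median ratio was 1.12. The Schwann cell cadherin Cdh19 was at 137, 157 and 150, close together in the 3 libraries. Sox10, the glial transcription factor, chosen here after its values were seen, ran the other way at 444, 131 and 110. The sensory list had the order in 1 of 3 genes, with a median ratio of 2.39.

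The wild-type pieces also differed in other tissues. Summed smooth muscle markers were at 162884, 174448 and 206259 in wild-type replicates 1, 2 and 3, and 8 of 10 of them had the members' order, with a median ratio of 1.26. Divided by this sum, the members were lowest in replicate 1 for 8 of 8, with a median ratio of 1.56, and highest in replicate 3 for 3 of 8. The shares of genes of like level after this division are not given here, so nothing is read from these counts. Summed skeletal muscle markers were at 153324, 48406 and 9719, and 0 of 9 had the order. Summed seminal vesicle genes were at 1309279, 479326 and 4638336, and 3 of 7 had it. The order was found in 0 of 6 prostate epithelium genes, 0 of 5 adipocyte genes and 0 of 6 endothelial genes. None of these markers was at 0 in a wild-type library. The part of these tissues in the members' order was not tested.

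Ctnnb1 and combined tumours both held lower levels of nearly all members than wild-type prostate. In bulk tissue, fewer cells of a type and less RNA per cell cannot be told apart. Every wild-type library was above every Ctnnb1 library for 8 of 8 members, where 35.6% of all genes were lower in this way. Likewise every wild-type library was above every combined library for 7 of 8, where 34.0% of all genes were. Since the members were chosen on these values, nothing is read from the counts. The median log2 change of the members, on the scale of log2(value + 1), was -5.59 in the Ctnnb1 group, or -4.75 with Htr3b set at 3 counts, where the median of all genes was 0.0028. In the combined group it was -5.29, or -4.45 with Htr3b set at 3 counts, where all genes had -0.011. With a pseudocount of 8 in place of 1 the members' medians were -3.85 and -3.55, so the size of the change depends on the pseudocount where tumour values are near 0.

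The noradrenaline enzymes Th and Dbh were close to 0 in Ctnnb1 and combined tumours. Th was at 4, 1 and 0 in Ctnnb1 tumours and at 1, 3 and 1 in combined tumours, against 128, 229 and 174 in wild type. Its log2 change was -6.33 in the Ctnnb1 group and -6.10 in the combined group (SE 0.68 each), or -4.24 and -4.23 with a pseudocount of 8. Dbh was at 7, 0 and 5 in Ctnnb1 tumours and at 1, 2 and 2 in combined tumours, against 174, 312 and 321 in wild type. That is a log2 change of -6.16 in the Ctnnb1 group and -6.63 in the combined group (SE 0.78 each), or -4.53 and -4.79 with a pseudocount of 8. No Ctnnb1 or combined library reached 10 for either enzyme, while every wild-type library was above 100. Ddc, which acts between Th and Dbh in the pathway, was at 19, 16 and 21 in Ctnnb1 tumours and at 22, 45 and 5 in combined tumours, against 217, 224 and 196 in wild type (log2 changes -3.45 and -3.52, SE 0.65).

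The receptor subunit Htr3b was at 0, 0 and 1 in Ctnnb1 tumours and listed at 0 in all 3 combined tumours, against 48, 96 and 128 in wild type. With so few counts in the tumours no fold is given for it. Htr3a, the subunit with which it forms a channel, was at 11, 8 and 6 in Ctnnb1 tumours and at 6, 0 and 0 in combined tumours, against 267, 458 and 583 in wild type. Both subunits were thus near 0 in the tumours.

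The axonal genes differed from each other in the tumours. Prph was at 12, 2 and 10 in Ctnnb1 tumours (8 ± 5.29, SD, n = 3) and at 14, 10 and 3 in combined tumours (9 ± 5.57), against 484, 654 and 894 in wild type (677 ± 206). The log2 change was -6.45 in the Ctnnb1 group and -6.24 in the combined group (SE 0.68 each). Stmn2 was at 22, 29 and 47 in Ctnnb1 tumours (32.7 ± 12.9, SD, n = 3) and at 172, 55 and 66 in combined tumours (97.7 ± 64.6), against 410, 606 and 688 in wild type (568 ± 143). It kept a level well above 0 in each tumour, with a log2 change of -4.11 in the Ctnnb1 group and -2.68 in the combined group (SE 0.47 each).

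Of the vesicle proteins, Syp was at 17, 13 and 8 in Ctnnb1 tumours and at 17, 20 and 8 in combined tumours, against 158, 197 and 267 in wild type. Its log2 change was -3.95 in the Ctnnb1 group and -3.76 in the combined group (SE 0.44 each). Scg2 was at 7, 4 and 2 in Ctnnb1 tumours and at 3, 11 and 8 in combined tumours, against 138, 171 and 201 in wild type. Here the log2 change was -5.10 in the Ctnnb1 group and -4.48 in the combined group (SE 0.55 each). Chga stood apart from the other granin. It was at 8, 37 and 2 in Ctnnb1 tumours (15.7 ± 18.7, SD, n = 3) and at 47, 49 and 20 in combined tumours (38.7 ± 16.2), against 48, 87 and 98 in wild type (77.7 ± 26.3). The highest combined library (49) lay just above the lowest wild-type library (48), so these groups overlapped for Chga. The log2 change of Chga was -2.90 in the Ctnnb1 group and -1.03 in the combined group (SE 0.86 each), the smallest among the members in both.

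**Figure D2:**
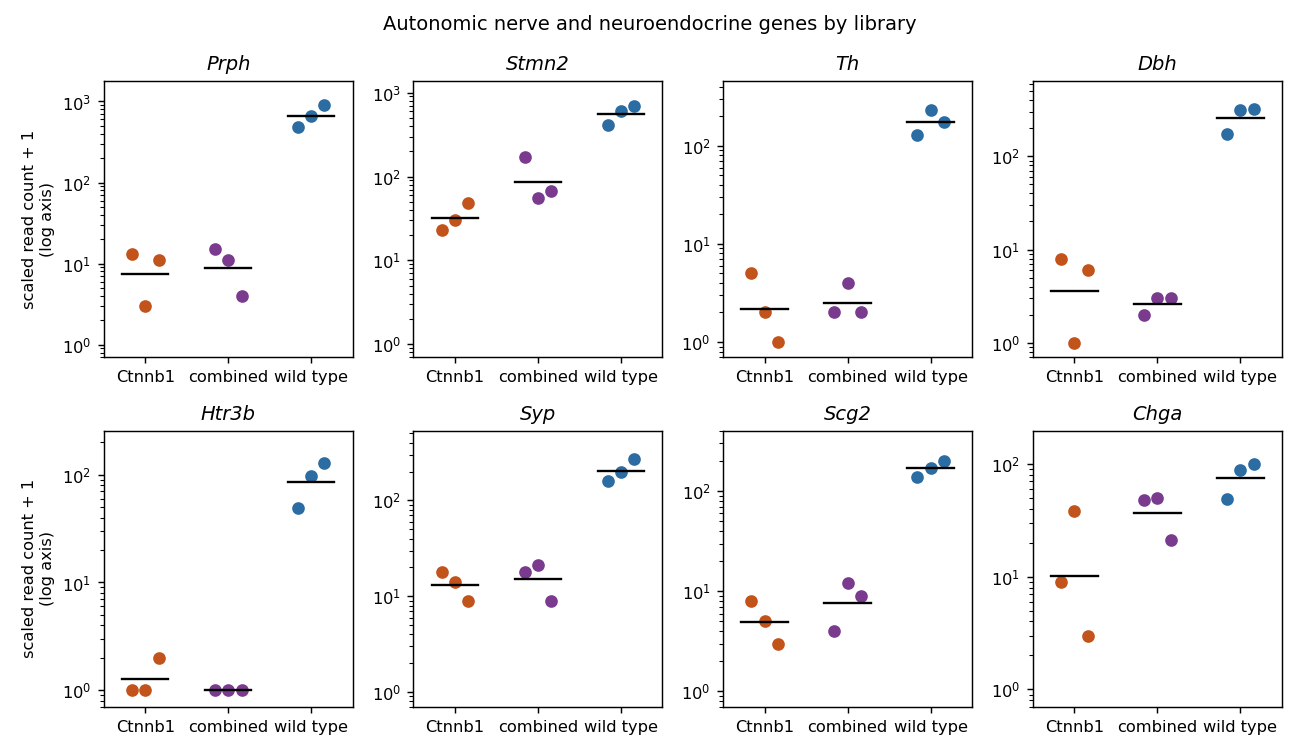
Scaled read count + 1 (log axis) of the 8 members listed in the genotype libraries, with 1 point per library and a line at the mean of log2(value + 1), for Ctnnb1 tumours, combined tumours and wild-type prostate (n = 3 each). Wild-type points lie above all tumour points for each gene apart from Chga, where the combined points reach the lowest wild-type point.

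Other genes of nerve and neuroendocrine cells were taken from 7 lists of 111 genes without the members, of which 77 were listed and tested. The lists were chosen with earlier results of these data known. The genotype libraries list no gene with a mean under 14.1 over the 9 libraries. A gene near 0 in all tumours is thus listed only through its wild-type values, which favours falls. Likewise a gene near 0 in wild type is listed only through its tumour values, which favours rises. The counts are therefore given as a description. By limma's moderated test, adjusted by Benjamini-Hochberg over all 13905 genes, 59 of the 77 fell and 7 rose in Ctnnb1 tumours, where 29.6% of all genes fell and 28.9% rose. In combined tumours 54 fell and 7 rose, where 29.5% of all genes fell and 28.3% rose. The median log2 change of the 77 was -3.15 in the Ctnnb1 group and -2.30 in the combined group. Of the calls, 62 of 66 in the Ctnnb1 group and 54 of 61 in the combined group stood whichever library was left out. The calls that were lost without at least 1 library were those of Nsg1, Pcsk1n, Eno2 and S100b in the Ctnnb1 group, and those of Isl1, Slc6a2, Maoa, Thy1, Scn3a, Celf4 and Pcsk2 in the combined group. With all libraries scaled to equal totals, the median of all genes moved to 0.49 in the Ctnnb1 group and 0.50 in the combined group. The share of called genes that were higher then was 78.9% in place of 49.4% in the Ctnnb1 group, and 81.9% in place of 48.9% in the combined group. On that scale 53 of the 77 fell and 9 rose in the Ctnnb1 group, 47 fell and 11 rose in the combined group, and all 8 members remained lower in both.

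Genes of the sympathetic list fell for 10 of 13 tested in Ctnnb1 tumours and for 12 of 13 in combined tumours (medians -1.467 and -1.535). The list includes Gata2, Gata3 and Cyb561, each at 6941 or more in every wild-type library. Of these, Gata3 fell in the combined group only. Which cells gave the reads of these genes was not tested. With equal totals 8 fell and 1 rose in the Ctnnb1 group, where the calls of Gata2 and Cyb561 were lost and Gata3 was the gene that rose. In the combined group 7 then fell, without the calls of Gata3, Isl1, Slc6a2, Maoa and Cyb561, and 9 fell on the main scale without wild-type replicate 3. Npy was at 4, 1 and 13 in Ctnnb1 tumours and at 21, 25 and 20 in combined tumours, against 241, 340 and 398 in wild type. Its log2 change was -5.95 in the Ctnnb1 group (adjusted p 0.000149, limma) and -3.81 in the combined group (adjusted p 0.00129, limma; SE 0.64 each). The noradrenaline transporter Slc6a2 was at 165, 130 and 308 in Ctnnb1 tumours against 1372, 1516 and 1978 in wild type (log2 change -3.09, SE 0.43, adjusted p 0.000484, limma). Cyb561, a cytochrome of secretory vesicles, had a small change in the combined group (-0.61), which was -0.09 with equal totals (adjusted p 0.298, limma).

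Cholinergic and parasympathetic genes fell for 9 of 10 in the Ctnnb1 group and for 8 of 10 in the combined group, with medians of -4.74 and -4.50. Chrna3 was at 1, 0 and 4 in Ctnnb1 tumours and at 0, 1 and 0 in combined tumours, against 132, 214 and 285 in wild type (log2 changes -6.55 and -7.32, SE 0.72). Ache, which splits acetylcholine, was at 8, 22 and 32 in Ctnnb1 tumours and at 20, 27 and 29 in combined tumours, against 767, 672 and 1272 in wild type (-5.52 and -5.06, SE 0.48). Nos1, the neuronal nitric oxide synthase, was at 12, 12 and 43 in Ctnnb1 tumours and at 34, 15 and 8 in combined tumours, against 689, 412 and 571 in wild type. Th, Dbh and Npy were thus low together with Chrna3, Ache and Nos1 in both tumour groups. The sympathetic and cholinergic lists also held genes that did not fall. The 1 gene of this list that rose in the Ctnnb1 group was Gfra1, a co-receptor for the growth factor GDNF (log2 change 1.12, adjusted p 0.00803, limma).

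Pan-neuronal and axon genes fell for 20 of 23 in the Ctnnb1 group and for 19 of 23 in the combined group, where 1 rose (medians -4.36 and -3.91). Rbfox3, which encodes the neuronal antigen NeuN, was at 5, 1 and 4 in Ctnnb1 tumours and at 8, 14 and 9 in combined tumours, against 1036, 944 and 1287 in wild type (log2 changes -8.11 and -6.61, SE 0.46). Nefl was at 1 in all 3 Ctnnb1 tumours and at 5, 0 and 1 in combined tumours, against 183, 272 and 382 in wild type. Mapt, the microtubule protein tau, was at 21, 13 and 24 in Ctnnb1 tumours and at 21, 33 and 25 in combined tumours, against 390, 343 and 491 in wild type (-4.36 and -3.91, SE 0.31). The gene that rose in the combined group, Thy1, is also made by fibroblasts and T cells.

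Dense-core vesicle genes split into 2 sets. In the Ctnnb1 group 8 of 10 fell and 2 rose, and in the combined group 7 fell and 2 rose. The genes that rose were the same in both: Cadps, which primes vesicles for release, and Cpe, carboxypeptidase E, which trims peptide hormones. Cadps was at 5190, 5397 and 5369 in Ctnnb1 tumours and at 3759, 6758 and 7887 in combined tumours, against 160, 173 and 249 in wild type (log2 changes 4.80 and 4.93, SE 0.27). Cpe was at 31163, 44133 and 21444 in Ctnnb1 tumours and at 19680, 18798 and 28840 in combined tumours, against 3966, 2727 and 2633 in wild type (3.34 and 2.85, SE 0.29). The granin Scg3 was at 0, 2 and 1 in Ctnnb1 tumours against 51, 92 and 101 in wild type, and Scg5, the chaperone of a prohormone convertase, at 1, 2 and 1 against 124, 56 and 61. Scg2, Scg3 and Scg5 were thus low in tumours in which Cadps and Cpe were high.

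Of the 11 genes listed for neuroendocrine carcinoma, 5 were tested. In the Ctnnb1 group 2 of them rose, 2 fell and 1 was not called. In the combined group 2 rose, 0 fell and 3 were not called. Foxa2, a transcription factor used as a marker of such tumours, was at 104, 98 and 237 in Ctnnb1 tumours and at 128, 86 and 135 in combined tumours, against 1, 0 and 3 in wild type (log2 changes 6.08 and 5.85, SE 0.57). Being near 0 in wild type, Foxa2 is listed only through its tumour values, which favours a rise, so its changes are a description. Bex1 also rose, at 2293, 1564 and 1099 in Ctnnb1 tumours and at 579, 298 and 1356 in combined tumours, against 110, 114 and 95 in wild type. Eno2, the neuronal enolase, fell in Ctnnb1 tumours (-1.47, adjusted p 0.0189, limma), a call that was lost without wild-type replicate 2 or 3 or Ctnnb1 replicate 15 (adjusted p up to 0.0623). In combined tumours Eno2 was at 405, 1018 and 1018 against 312, 383 and 464 in wild type and was not called, but it was without combined replicate 10 and with equal totals (adjusted p 0.0126, limma). Ncam1, a cell adhesion molecule of neurons, fell in Ctnnb1 tumours (-2.86) and was at 493, 1162 and 262 in combined tumours, against 393, 326 and 512 in wild type. Both tumour groups thus had higher Foxa2 and Bex1 beside lower Syp and Scg2. In the Ctnnb1 group Chga, Ncam1 and, by a call that some libraries carried, Eno2 were lower too.

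Schwann cell and satellite glia genes fell for 8 of 13 in the Ctnnb1 group and for 6 of 13 in the combined group, with 2 that rose in each and medians of -1.58 and -1.02. Cdh19 was at 3, 0 and 2 in Ctnnb1 tumours and at 3, 5 and 3 in combined tumours, against 137, 157 and 150 in wild type (log2 changes -6.02 and -5.02, SE 0.59). The genes that rose in the Ctnnb1 group were Egr2 (2.58) and Erbb3, a neuregulin receptor that epithelium also makes (1.12, adjusted p 0.000123, limma). In the combined group they were Egr2 (2.92) and Cnp. The calls of these genes stood whichever library was left out. In the sensory list 2 of 3 tested genes fell in each group, namely Tac1, which encodes substance P (-3.83 and -3.46, SE 0.82), and Piezo2, a mechanosensitive channel (-1.02 and -1.77, SE 0.24). The Piezo2 call in the Ctnnb1 group was lost with equal totals (adjusted p 0.0774, limma).

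**Figure D3:**
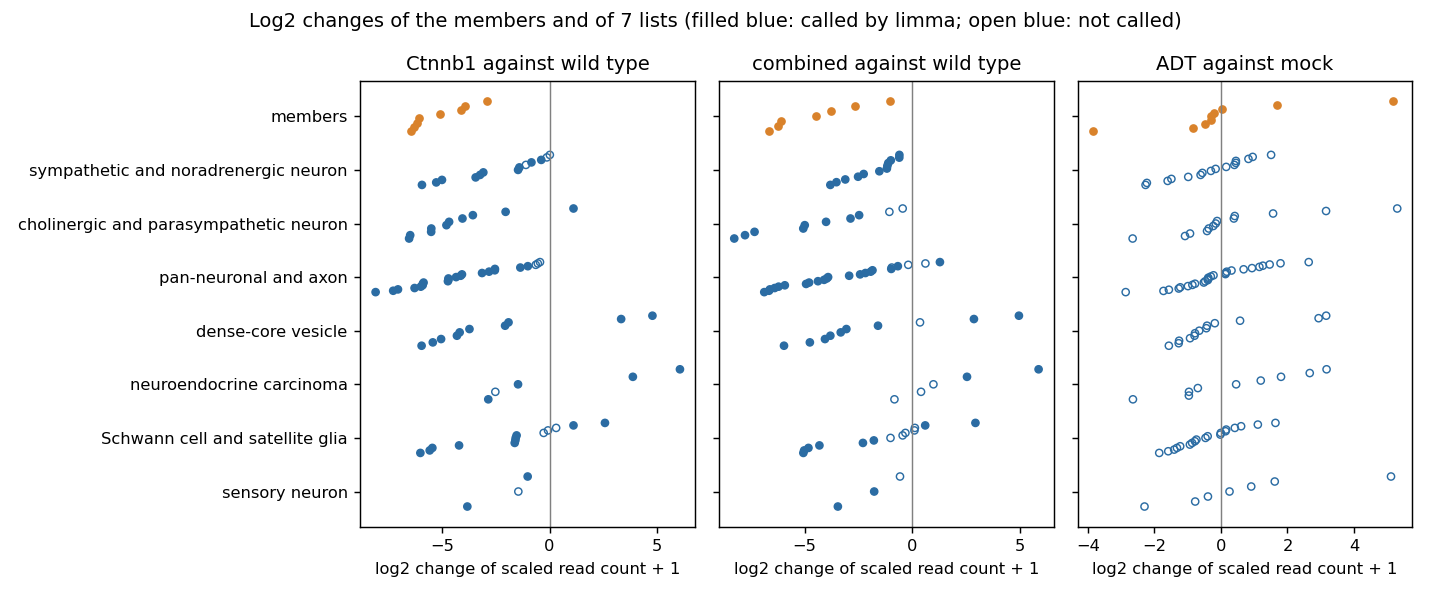
Log2 change of scaled read count + 1 (horizontal axis) for each member (orange) and each gene of the 7 lists (blue; filled where limma called it, open where it did not), for Ctnnb1 tumours and combined tumours against wild type and for ADT against mock. Genes listed at 0 throughout a group are left out. Most points lie left of 0 in the 2 tumour panels, apart from a few such as Foxa2 (6.08 and 5.85), and on both sides of 0 under ADT.

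Markers of 6 other tissues were set beside these genes. All 10 smooth muscle markers fell in both tumour groups, and their sum was 2443 to 4928 in Ctnnb1 tumours and 7823 to 23316 in combined tumours, against 162884 to 206259 in wild type. Skeletal muscle markers fell for 8 of 9 in the Ctnnb1 group and for 9 of 9 in the combined group, with sums of 72 to 10653 in Ctnnb1 tumours and 113 to 1232 in combined tumours, against 9719 to 153324 in wild type. Without wild-type replicate 1, which held the highest sum, 2 of the 9 fell in each group. In the Ctnnb1 group 2 fell also when Ctnnb1 replicate 13, Ctnnb1 replicate 14 or wild-type replicate 2 was left out, and in the combined group 4 fell without wild-type replicate 2 or combined replicate 11 or 12. Seminal vesicle genes fell for 7 of 7 in the Ctnnb1 group and 2 of 7 in the combined group, with sums of 205 to 5140 in Ctnnb1 tumours and 44682 to 213638 in combined tumours, against 479326 to 4638336 in wild type. In the combined group 0 of 7 fell without wild-type replicate 1 or 3 or combined replicate 12, and 1 of 7 without any other single library or with equal totals. Of 5 adipocyte genes 1 fell in each group, with sums of 579 to 929 in Ctnnb1 tumours and 906 to 1920 in combined tumours, against 1854 to 5059 in wild type. Without Ctnnb1 replicate 14 or wild-type replicate 2, 3 of them fell in the Ctnnb1 group, and without combined replicate 11, 3 fell in the combined group. Of 6 prostate epithelium genes 1 rose and 2 fell in the Ctnnb1 group, and 2 rose and 2 fell in the combined group, with sums of 93212 to 126255 in Ctnnb1 tumours and 85244 to 117056 in combined tumours, against 440541 to 618172 in wild type. Most of the wild-type sum was Pbsn, and the other 5 genes summed to 60688 to 85809 in Ctnnb1 tumours and 75993 to 104870 in combined tumours, against 57403 to 67209 in wild type. With equal totals 3 of these genes rose and 1 fell in the Ctnnb1 group, and 2 rose and 1 fell in the combined group. Of 6 endothelial genes 1 fell in the Ctnnb1 group and 4 rose in the combined group, with sums of 3730 to 3935 in Ctnnb1 tumours and 4442 to 9710 in combined tumours, against 3397 to 4361 in wild type. With equal totals 3 endothelial genes rose and 1 fell in the Ctnnb1 group, and 4 rose in the combined group. No marker of these 6 lists was at 0 throughout a group. The part of these tissues in the members' levels was not tested.

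Androgen deprivation of the inducible model was compared with mock treatment, a contrast that the choice of members did not name. limma called 0 of 9 members at an adjusted p under 0.05, as it called 0.00859% of 23289 genes, and no other tool was run. At an unadjusted p under 0.05 there were 3 of 9 members, Prph, Chga and Syp, where 16.2% of all genes passed. Prph was at 563, 643 and 3213 under ADT (1473 ± 1507, SD, n = 3), against 10 and 77 with mock treatment (43.5 ± 47.4, SD, n = 2). The groups did not overlap, and the log2 change was 5.17 (SE 1.20, adjusted p 0.182, limma). Syp was at 94, 51 and 166 under ADT, against 27 and 30 with mock treatment, again without overlap (1.67, SE 0.60, adjusted p 0.284, limma). Chga was the reverse, at 8, 7 and 32 under ADT, against 398 and 92 with mock treatment (-3.85, SE 0.99, adjusted p 0.188, limma). The share of all genes without overlap was 16.4% higher and 16.8% lower under ADT. Over the alternatives tried the adjusted p ran from 0.138 to 0.478 for Prph, from 0.251 to 0.575 for Syp and from 0.160 to 0.516 for Chga, and their directions stayed. The size rested on the mock libraries: the log2 change of Prph was 3.76 without mock replicate 1 and 6.58 without mock replicate 2, and that of Chga was -2.80 and -4.90.

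The other members overlapped between ADT and mock. Stmn2 was at 649, 115 and 104 under ADT, against 120 and 316 with mock treatment (log2 change 0.03, adjusted p 0.991, limma). Th was at 1, 2 and 14 under ADT, against 2 and 12 with mock treatment, and Dbh at 10 in all 3 ADT libraries, against 3 and 39. Phox2a, listed only in this set, was at 4, 2 and 5 under ADT, against 4 and 5 with mock treatment. Htr3b was at 0, 2 and 3 under ADT, against 1 and 3, and Scg2 at 3, 2 and 8, against 2 and 23.

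Mock replicate 2 was higher than mock replicate 1 for 8 of 9 members, Chga being the exception, and ADT replicate 3 was above both other ADT libraries for 7 of 9. The share of all genes highest in ADT replicate 3 was not computed, so nothing is read from that count. It includes genes of few counts, such as Phox2a (4, 2 and 5) and Htr3b (0, 2 and 3). Without mock replicate 2 the log2 change was 1.46 for Dbh, 0.58 for Th, 0.72 for Stmn2, 0.67 for Scg2 and 0.20 for Htr3b. Without mock replicate 1 the same genes had -1.86, -1.54, -0.67, -2.33 and -0.81, so the sign for these 5 was set by which mock library was kept. Of the sympathetic list, 13 of 17 genes above 0 in some library were higher in mock replicate 2 than in mock replicate 1, as were 11 of 13 cholinergic genes, 16 of 26 pan-neuronal genes and 11 of 19 Schwann cell genes. Over the 104 list genes tested the share was 65.4%, against 48.6% of all genes tested. Examples chosen after their values were seen are Htr3a, Snap25 and Chrna3. Htr3a was at 1, 3 and 20 under ADT, against 0 and 41 in mock replicates 1 and 2, and Snap25, a protein of synaptic vesicle fusion, at 3, 8 and 18, against 2 and 52. Chrna3 was at 2, 2 and 8 under ADT, against 0 and 21 with mock treatment. ADT replicate 1, which held the most Stmn2, also had the highest Nefl (241, with 19 and 16 in the other ADT libraries, against 9 and 32 with mock treatment). Summed smooth muscle markers were at 14677, 24941 and 25195 under ADT, against 38021 and 23948 with mock treatment, and summed seminal vesicle genes at 3, 5792 and 12514, against 4772 and 283006. Summed skeletal muscle markers were at 2361, 144 and 46449 under ADT, against 11421 and 29283 with mock treatment, and were thus also higher in ADT replicate 3 and mock replicate 2 than in the other libraries of their groups. Their part in the members' levels was not tested.

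**Figure D4:**
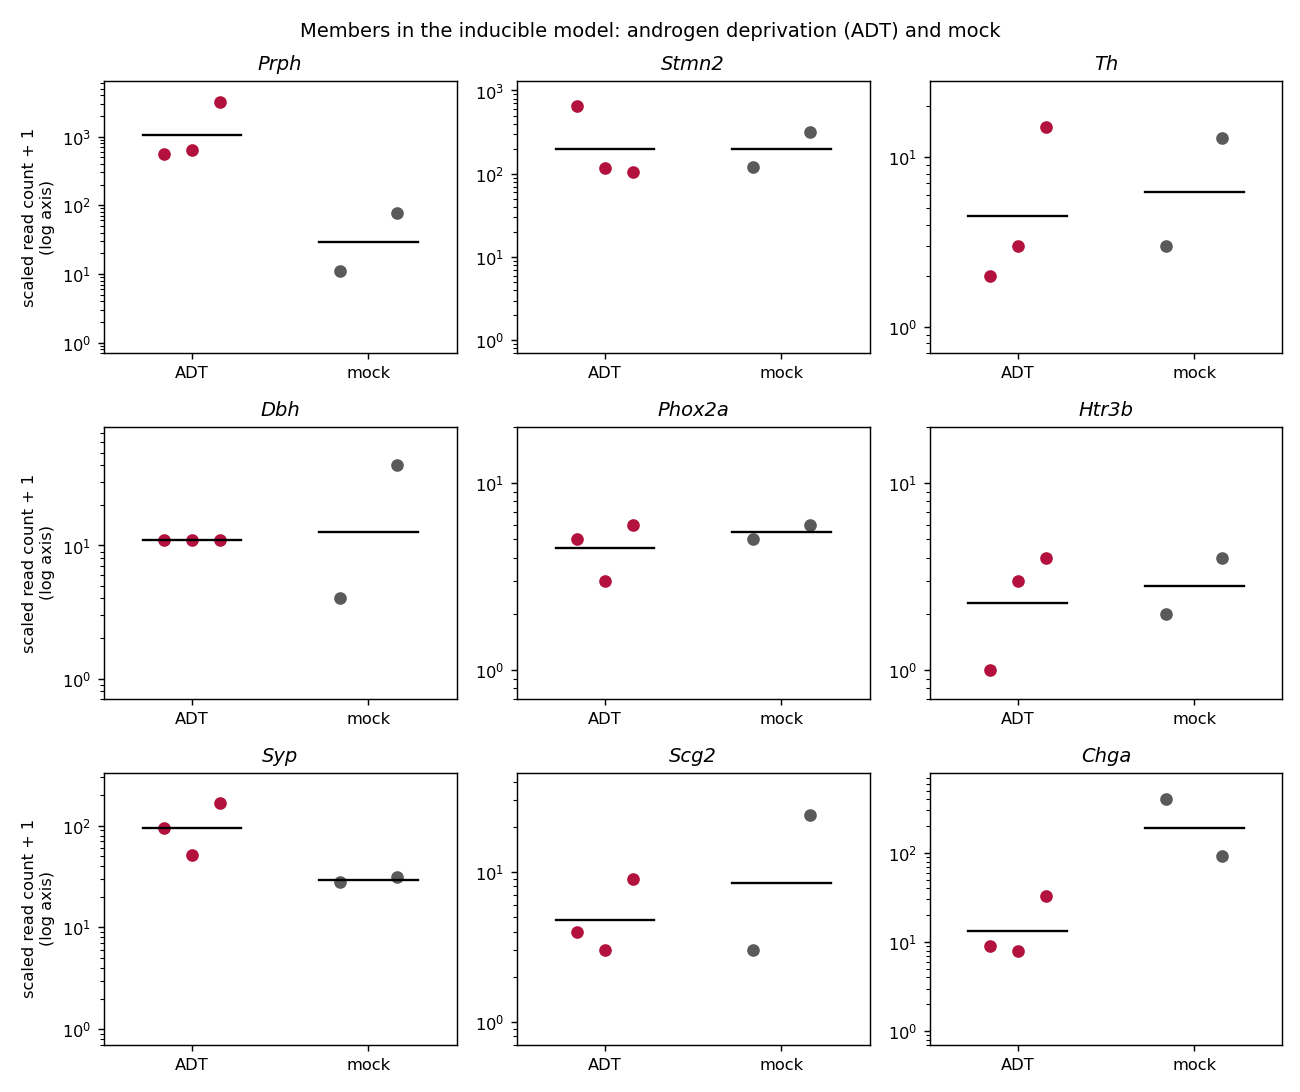
Scaled read count + 1 (log axis) of the 9 members under ADT (n = 3) and after mock treatment (n = 2), with 1 point per library and a line at the mean of log2(value + 1). Prph (563 to 3213 against 10 and 77) and Syp lie higher under ADT and Chga lies lower, without overlap, while the other 6 overlap.

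Of the list genes, limma called 0 of 104 tested under ADT, and 15 (14.4%) had an unadjusted p under 0.05, where 16.2% of all genes did. Ret, the receptor tyrosine kinase for GDNF, was at 8686, 11806 and 16482 under ADT, against 284 and 320 with mock treatment (log2 change 5.30, SE 0.30, adjusted p 0.0633, limma). It was called with no filter on low values (adjusted p 0.0364, limma), with a mean of at least 10 (0.0288) and with equal totals (0.0301). Its co-receptor Gfra1 was at 2588, 2761 and 4685 under ADT, against 234 and 553 with mock treatment (3.16, adjusted p 0.121, limma). Avil, an actin-binding protein on the sensory list, was at 7755, 14045 and 14688 under ADT, against 230 and 494 with mock treatment (5.11, adjusted p 0.0710, limma), and was called with a mean of at least 10 (0.0403) and with equal totals (0.0402). The rest of these lists did not share such rises. The 8 sensory genes tested ran from -2.30 to 5.11, with a median of 0.58. That median was 0.20 with the gene at 0 throughout 1 group set at 3 counts there. The 13 cholinergic genes tested, with Ret and Gfra1 among them, had a median of -0.16. Foxa2 was at 831, 2471 and 2402 under ADT, against 138 and 255 with mock treatment (3.17, adjusted p 0.146, limma). Slc6a2 was at 105, 310 and 266 under ADT, against 882 and 1060 with mock treatment (-2.23, adjusted p 0.187, limma). The median log2 change of the 104 was -0.34, that of all genes -0.02.

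The genes most like the members over the 9 genotype libraries were ranked by the mean absolute difference of log2(value + 1), centred on each gene's mean, from the median profile of the 8 members. Among 12798 genes with a mean of at least 50, the nearest was Ryr2, a calcium release channel of muscle and neurons, at 5, 3 and 7 in Ctnnb1 tumours and at 6, 8 and 7 in combined tumours, against 175, 202 and 247 in wild type (difference 0.315). It was followed by Elapor1 (0.358), Cdh19 (0.367), Lamc3 (0.396), Slc35d3 (0.407), Tmem200c (0.477), Ank1 (0.481) and Oit1 (0.503). The members themselves lay between 0.476 for Scg2 and 1.88 for Chga. Over the 3 wild-type libraries alone, the nearest of 12475 genes were Ptprq, Il7, Cd164l2, Slc6a15, Hpca, Nos1ap, Prss53 and Olfr920, with differences of 0.0245 to 0.0270. Hpca, a neuronal calcium sensor, was at 44, 66 and 76 in wild type. Over the 5 inducible libraries the nearest were Inca1, Casq2, Trim36, Inha, Acacb, Rnf144b, Tspan8 and Kif5c (0.137 to 0.215), while the members lay between 0.319 for Phox2a and 2.5 for Prph. These differences are descriptions over libraries that differ in tissue makeup.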

How the data were processed

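RNA was extracted from frozen prostate or tumour tissue with an integrity number above 7.3 and sequenced in pairs of 90 nt on a HiSeq 2000, at least 6 Gb for each sample, per the labels' protocols. The submitters' processing notes name the build GRCm38.p3 and, with no roles or settings, DESeq2 1.14.1, HTSeq 0.6.0, TopHat2 2.1.0, FastQC 0.11.4, R 3.2.3 and Bowtie2 2.2.6.0. Whether counting used strand is not given in the sources used here.

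The deposited values are scores: judged from the values, the authors scaled each library's gene counts by its own size factor and rounded the quotients to whole numbers. Neither raw counts nor size factors entered the work, so depth and its precision cannot be given. The design had named a test for this case. The genotype files lack genes of low value, since their lowest mean over 9 libraries was 14.1, and a gene not listed is not a gene without expression.

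Of 15195 genotype features, 631 without an Entrez number, those of 118 Entrez numbers given to several features, and 389 that repeat another gene's values were left out. Of 42847 inducible features, 3668 repeats were left out, and 15208 missing symbols were looked up by Ensembl identifier. No 2 libraries had identical values.

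Tests were limma 3.58.1 (R 4.3.3) with a variance trend on log2(value + 1), adjusted by Benjamini-Hochberg over all genes of a comparison and called under 0.05. A gene needed a value of at least 1 in 3 of the 9 genotype libraries, fitted together, or in 2 of the 5 inducible libraries, fitted alone. No age factor was fitted. Alternatives were a pseudocount of 8, no filter, a mean of at least 10, equal totals, no trend, a fit of 12 libraries, each library left out, and a replicate block. Tables and figures used Python 3.11.15, pandas 2.3.3 and matplotlib 3.10.9. The method was checked on simulated data.

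The members and the 13 lists (7 of nerve, glial and neuroendocrine genes, 6 of other tissues) were chosen with earlier results of these data known. Genes named are the members, up to 4 genes per list with the smallest p, and the 8 genes with the nearest profile, of which the text gives a part; in wild type, genes that this rule takes from the Ctnnb1 comparison were used. The exceptions, taken with their values in view, are Sox10, Snap25, Htr3a, Ddc, Gfra1, Thy1, Egr2, Cnp and Pbsn, the genes named for a lost call, and in the inducible model Nefl, Chrna3, Slc6a2 and Foxa2. A further genotype group, some genes that the rule takes and comparisons that rest on the further engineered change alone are not reported here.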

Additional observations from a re-analysis of the deposited data

How the results depend on the processing

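With a pseudocount of 8 the members' median log2 change was -3.85 in the Ctnnb1 group and -3.55 in the combined group, a shift that the larger pseudocount gives by construction for values near 0. It also moved 10 of the values of single members in these comparisons by more than the spread between replicates, all toward 0, while the other 277 recomputed values of single members stayed within that spread or, under ADT, remained uncalled. In these comparisons the count of list genes called and the members' direction held under every alternative. Leaving out 1 library at a time gave 62 to 65 called list genes and a members' median of -5.84 to -5.17 in the Ctnnb1 group. In the combined group it gave 56 to 62 and -5.61 to -4.98. Under ADT, list genes or members called numbered 1 with no filter, 2 with a mean of at least 10 and 2 with equal totals, in place of 0. Leaving out 1 library gave 0 each time and a members' median of -0.81 to 0.67. The median ratio in wild type was 1.24 without replicate 1, and 1.24 to 1.76 over the libraries left out. ADT and mock share replicate numbers 1 and 2, which the labels do not tie to a batch, and the deviations of same-numbered libraries correlated at 0.223 and 0.117. With the replicate block 0 members or list genes were called and the members' median was -0.50. An unknown depth limits what can be said of Th, Phox2a, Htr3b and Scg2 in the inducible model, whose values were mostly under 10.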
